A study of Homo sapiens with 12 samples.

Results

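The comparison described here set MDA-MB-231 cells given cardamonin and JQ-1 together against the same cells given the solvent DMSO, by RNA sequencing, and 6 of the 12 libraries of the study belong to it (3 treated, 3 vehicle). MDA-MB-231 is an established human triple-negative breast cancer line with mesenchymal features, used here as wild type cells. The combination held cardamonin at 10 µmol/L and JQ-1 at 25 µmol/L, and the remaining groups were cardamonin alone at 10 µmol/L, JQ-1 alone at 25 µmol/L and DMSO, with 3 libraries each. The time of treatment is not given in the sources used here, and they leave it unsaid whether the replicates are separate cultures; the p-values therefore reflect only the spread between these libraries, which may be technical. The title of the study places the drug pair in the context of invasion and metastasis.

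JQ-1 occupies the acetyl-lysine pocket of the BET proteins, which bring the elongation kinase P-TEFb to promoters and enhancers, and BET inhibitors are known for lowering cell cycle genes and for raising HEXIM1 and histone genes. Cardamonin is a plant chalcone whose reactive enone can modify cysteines, among them those of KEAP1, the protein that holds the transcription factor NRF2 in check. NRF2 pairs with small MAF proteins at antioxidant response elements and drives genes for glutathione, thioredoxin, NADPH supply and iron storage.

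The 6 libraries held between 17663010 and 19020019 counted reads over 16384 listed genes, of which 12645 passed the filter on low counts and were tested. The markers expected of the line were present: VIM, CD44, EGFR, AXL and CAV1 each had at least 3070 counts in every one of the 6 libraries, whereas the estrogen receptor gene ESR1 had 0 to 4. The first combination library held transcripts of another tissue, with 1429 counts of ALB, the gene of serum albumin, against 5 to 8 in the other 5 libraries. Its 24 liver markers summed to 232.8 CPM, with none at 0 counts. CPM are counts scaled to a common library size, per 1e6 reads, with libraries scaled by the trimmed mean of M-values (TMM). The sums were 15 and 12.29 CPM in the other combination libraries, where 14 and 10 markers were at 0. With DMSO they were 4.73 to 6.06 CPM. In those other combination libraries CYP2E1 had the largest count of the 24, at 166 and 121, against 8 to 23 with DMSO. HPX had 24 and 11 counts there, against 1 to 5 with DMSO, while ALB had 5 and 8. SERPINA1 was lower there, at 30 and 30 counts against 44 to 61 with DMSO. With JQ-1 alone CYP2E1 had 63 to 78 counts and HPX 29 to 44. The third DMSO library stood apart from the others of its group: its counts differed from theirs by a chi-square of 10.6 and 12.6 per degree of freedom, against 1.65 for the first and second, and its deviations ran against gene length (Spearman -0.661 over 10382 genes, a description, against 0.488 and 0.547 for the others). The leukocyte markers summed to 124.6 to 134.3 CPM with DMSO and 149.2 to 167.6 with the combination, nearly all from CD68, while the pan-leukocyte gene PTPRC had at most 1 count in any of the 6. Endothelial and fibroblast markers summed to 44.5 to 47.4 and 49.3 to 50.1 CPM. The endothelial gene CDH5 had 0 to 2 counts, but KDR, another endothelial gene, had 120 to 144 with DMSO and 100 to 109 with the combination. PDGFRB had 601 to 693 counts over the 6 libraries. COL1A1 had 131 to 156 with DMSO and 41 to 47 with the combination. The part of these differences between libraries in the results was not tested beyond the values given without the first combination library and without the third DMSO library.

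The combination changed most of the transcriptome, with deep losses of cell cycle genes and steep gains of NRF2 genes, ferritin and histone genes. Of the 12645 genes tested, 10801 passed an adjusted p of 0.05 (85.4%; edgeR's quasi-likelihood test, Benjamini-Hochberg adjustment over all genes tested, used for every adjusted p below). They were 5386 higher genes (42.6%) and 5415 lower genes (42.8%). Losses ran deeper than gains: 1586 genes rose at least 2-fold (12.5%) and 2573 fell at least 2-fold (20.3%), and past 4-fold the counts were 368 (2.91%) and 1199 (9.48%). Without the first combination library 5269 genes were higher and 5328 lower, and without the third DMSO library 5480 and 5434. When libraries were scaled by total count, fold changes shifted by a median of -0.207 on the log2 scale and the split became 4216 higher and 6501 lower, so that 39.3% of the called genes were higher in place of 49.9%. By separation alone, all 3 treated libraries lay above all 3 vehicle libraries for 42.2% of genes and below them for 42.6%. Levels are relative to the other transcripts of a library, and in bulk RNA fewer cells in a given state and less of a transcript per cell cannot be told apart. With so many genes passing, the lists below are read against 42.6% and 42.8%, and against a median log2 fold change of 0.00 over all genes tested.

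**Figure D1:**
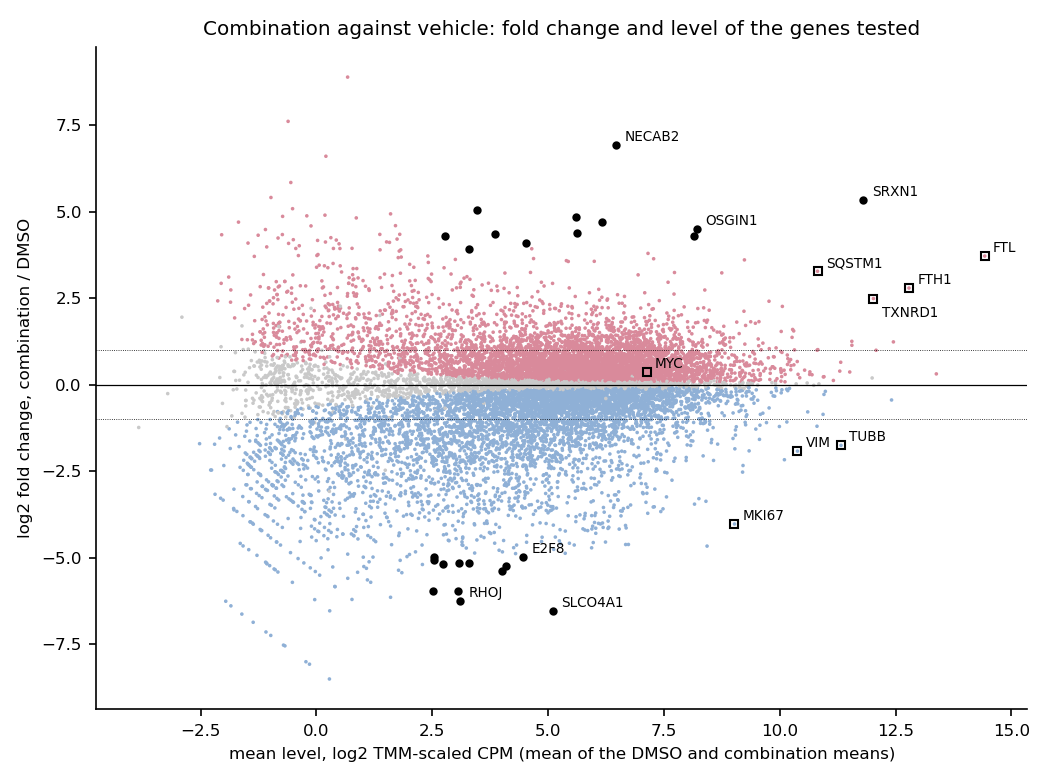
Log2 fold change of the combination over DMSO (vertical axis) against mean level in log2 TMM-scaled CPM (horizontal axis) for the 12645 genes tested, with genes past an adjusted p of 0.05 in red (higher, 5386) or blue (lower, 5415) and the others in grey. Dotted lines mark 2-fold, filled black circles the 12 largest rises and 12 largest falls, and open squares other named genes; SRXN1, FTL, FTH1, TXNRD1 and SQSTM1 stand out at the upper right, and the cloud reaches further down than up.

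The largest rises among genes with at least 10 CPM were led by NECAB2 and SRXN1. NECAB2, which encodes a neuronal calcium-binding protein (chr16:83968632-84002776, plus strand, GRCh38), stood at 1.23, 1.17 and 1.86 CPM with DMSO and at 180, 172 and 174 CPM with the combination. Every treated library was thus far above every vehicle library, with a fitted rise of 122-fold (log2 6.93 ± 0.10 SE, adjusted p = 5.23e-23). NECAB2 begins 2299 bases beyond the end of OSGIN1 on the same strand, and OSGIN1, an NRF2 target that encodes an oxidative stress-induced growth inhibitor, rose as well. OSGIN1 went from 24.5, 23.8 and 27.4 CPM to 550, 587 and 569 CPM (22.5-fold, adjusted p = 5.34e-24). Whether reads running on from OSGIN1 were counted for NECAB2 was not tested.

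SRXN1, which encodes sulfiredoxin, the enzyme that restores over-oxidized peroxiredoxins, lies on chromosome 20 (chr20:646615-653370, minus strand). It was counted at 169, 169 and 183 CPM with DMSO and at 7036, 7057 and 6876 CPM with the combination. The 3 treated libraries lay close together and far above the vehicle libraries, a rise of 40.3-fold (log2 5.33 ± 0.04, adjusted p = 2.59e-27). The ID genes, which encode dimerization partners that keep basic helix-loop-helix factors off DNA, were also among the steepest: ID3 moved from 4.64, 4.57 and 6.60 to 142, 134 and 137 CPM (26.1-fold, adjusted p = 5.52e-22) and ID2 from 0.395, 0.903 and 0.684 to 13.3, 12.8 and 13.1 CPM (19.8-fold, adjusted p = 1.72e-16). The groups did not overlap for either, which was a condition for every gene in this ranking. EFR3B, whose product anchors a phosphatidylinositol kinase at the plasma membrane, rose 29-fold, and TPPP, a tubulin polymerization-promoting protein gene, 20.5-fold. SERPINI1, the gene of neuroserpin, rose 17.1-fold, and MYO1D, a class I myosin gene, 15.3-fold. The histone genes H4C8, H2BC21 and H1-2 complete the 12 and are described with their family. In 8 of these 12 genes the combination was also above JQ-1 alone, and in ID3 it was below it.

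The largest falls came from genes with little left to count in the treated libraries. SLCO4A1, which encodes an organic anion transporter (chr20:62642445-62685785, plus strand), stood at 67.6, 69.7 and 67.2 CPM with DMSO and at 0.709, 0.639 and 0.820 CPM with the combination. All 3 treated libraries were below 1 CPM, a fall of 93.5-fold (adjusted p = 6.35e-22). RHOJ, the gene of a small GTPase that acts on focal adhesions and cell migration (chr14:63204114-63293219, plus strand), dropped from 19.1, 16.6 and 14.9 to 0.0591, 0.0581 and 0.527 CPM (76.2-fold, adjusted p = 6.22e-14). The third treated library was the highest of these, still far below each vehicle library, and without it the fitted log2 fold change moved from -6.25 to -8.01. SIGIRR, a damping member of the interleukin-1 receptor family, fell 62.6-fold, and SYT2, a synaptotagmin gene of vesicle release, 61.8-fold. SPC25, a subunit of the NDC80 kinetochore complex, fell 41.9-fold, and E2F8, an atypical E2F repressor gene expressed in S phase, fell 31.6-fold. TMEM71, a membrane protein gene, RIMS2 of the synaptic active zone, RASGRF1 with its Ras exchange activity, DMBT1 of mucosal defence, PDE4B of cyclic AMP breakdown and TNS4 of focal adhesions fell between 31.4-fold and 37.7-fold. For DMBT1 the log2 fold change moved from -5.16 to -5.91 without the third combination library. Of the 12, RHOJ, E2F8 and TNS4 were also lower than with JQ-1 alone. For RHOJ that difference was lost without the first or the second combination library or the first JQ-1 library (adjusted p = 0.0692, 0.067 and 0.0784).

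**Figure D2:**
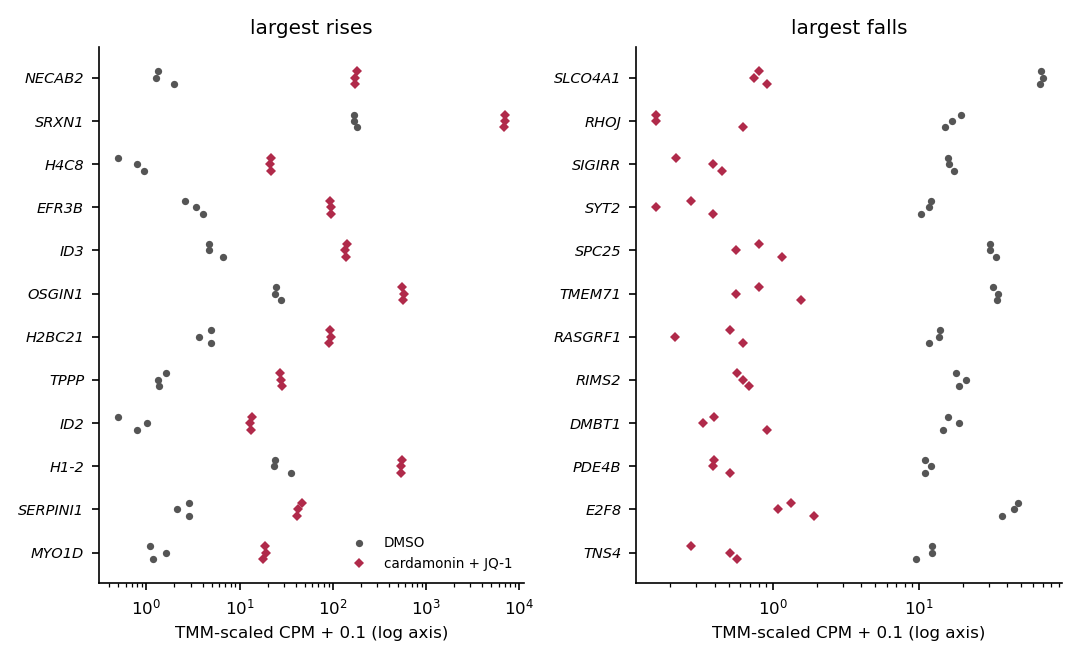
TMM-scaled CPM plus 0.1 on a log axis for the 12 largest rises (left) and 12 largest falls (right), with 1 grey circle for each DMSO library and 1 red diamond for each combination library. The 24 genes were chosen among those whose groups do not overlap. SRXN1 ends between 6876 and 7057 CPM and SLCO4A1 below 1 CPM.

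Genes of the NRF2 program rose broadly and by a large amount. Of 46 tested, 39 were higher and 5 lower, with 29 of the rises at least 2-fold and a median log2 fold change of 1.14. The promoter of GCLM, which encodes the modifier subunit of the glutathione-synthesizing ligase, is printed because it carries the letters of an antioxidant response element close to the start. The 250 bases before its start are from RefSeq (GRCh38.p14, chr1:93909431-93909680, minus strand), with the element in capitals, read here on the opposite strand.
GCLM: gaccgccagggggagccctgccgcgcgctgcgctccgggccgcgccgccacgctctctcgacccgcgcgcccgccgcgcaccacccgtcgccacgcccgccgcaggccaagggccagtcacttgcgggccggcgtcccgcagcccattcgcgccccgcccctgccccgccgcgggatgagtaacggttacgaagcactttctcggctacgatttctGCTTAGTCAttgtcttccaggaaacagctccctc
The element was searched as TGACNNNGC on both strands in the 300 bases from 250 before to 50 after each start. It was found in 9 of the 32 NRF2 genes with a promoter entry (28.1%), in 13.6% of all 27305 promoters and in 15% of those of the genes tested. GCLM itself was counted at 93.2, 91.7 and 89.0 CPM with DMSO and at 1130, 1139 and 1079 CPM with the combination (12.2-fold, adjusted p = 8.72e-25). All treated libraries were above 1000 CPM and all vehicle libraries below 100. GCLC, the catalytic subunit of the same ligase, rose 3.88-fold, and all 6 tested glutathione genes rose, among them GSR, glutathione reductase, at 82.0, 82.6 and 82.9 against 779, 797 and 758 CPM (9.43-fold, adjusted p = 1.04e-24).

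The thioredoxin branch moved the same way, with 4 of 5 tested members higher. TXNRD1, thioredoxin reductase, held 1275, 1280 and 1206 CPM with DMSO and 7140, 7109 and 6945 CPM with the combination (5.63-fold, adjusted p = 3.90e-23). Its substrate gene TXN rose 2.57-fold and PRDX1, a peroxiredoxin gene, 4.81-fold. The 5 genes tested that supply NADPH all rose. NQO1, the quinone reductase often used as an NRF2 readout, rose 2.07-fold. Among 10 regulators and partners 9 rose, among them SQSTM1, the autophagy receptor p62 that binds KEAP1, from 324, 326 and 356 to 3259, 3346 and 3200 CPM (9.74-fold, adjusted p = 8.48e-24). The exceptions were CBR3, a carbonyl reductase gene, at a log2 fold change of -2.46, MAFF, a small MAF gene, at -1.17, and ABCC4, a drug exporter gene, which fell by 1.0; 2 further members of conjugation and export fell by less. AKR1B10, an aldo-keto reductase gene, did not pass (log2 -0.61, adjusted p = 0.277), at 0.592, 0.425 and 0.244 against 0.177, 0.0581 and 0.585 CPM.

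The ferritin genes FTL and FTH1 had the largest gains in mean CPM among called genes. FTL, the ferritin light chain gene (chr19:48965301-48966878, plus strand), stood at 2928, 2898 and 3465 CPM with DMSO and at 40295, 42581 and 39805 CPM with the combination. It made up 0.309% to 0.373% of all counts in the vehicle libraries and 3.71% to 3.92% in the treated ones, and rose 13.2-fold (log2 3.72 ± 0.06, adjusted p = 1.09e-19). FTH1, the heavy chain with the ferroxidase site, went from 1685, 1682 and 1974 to 12348, 13075 and 11724 CPM (6.95-fold, adjusted p = 2.66e-19). Ferritin genes have many processed pseudogenes, so their counts are uncertain where the counting could split such copies. HMOX1, heme oxygenase, which releases iron from heme, rose 3.40-fold, from 18.3, 17.5 and 17.6 to 58.1, 63.2 and 60.9 CPM (adjusted p = 6.76e-18). The 17 iron uptake and ferroptosis genes showed no such shift, with 9 higher, 5 lower and a median of 0.12, which became -0.09 under total count scaling. Within them SLC3A2, the shared heavy chain of amino acid exchangers, rose 4.37-fold and GPX4, the lipid peroxide reductase, 1.79-fold.

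**Figure D3:**
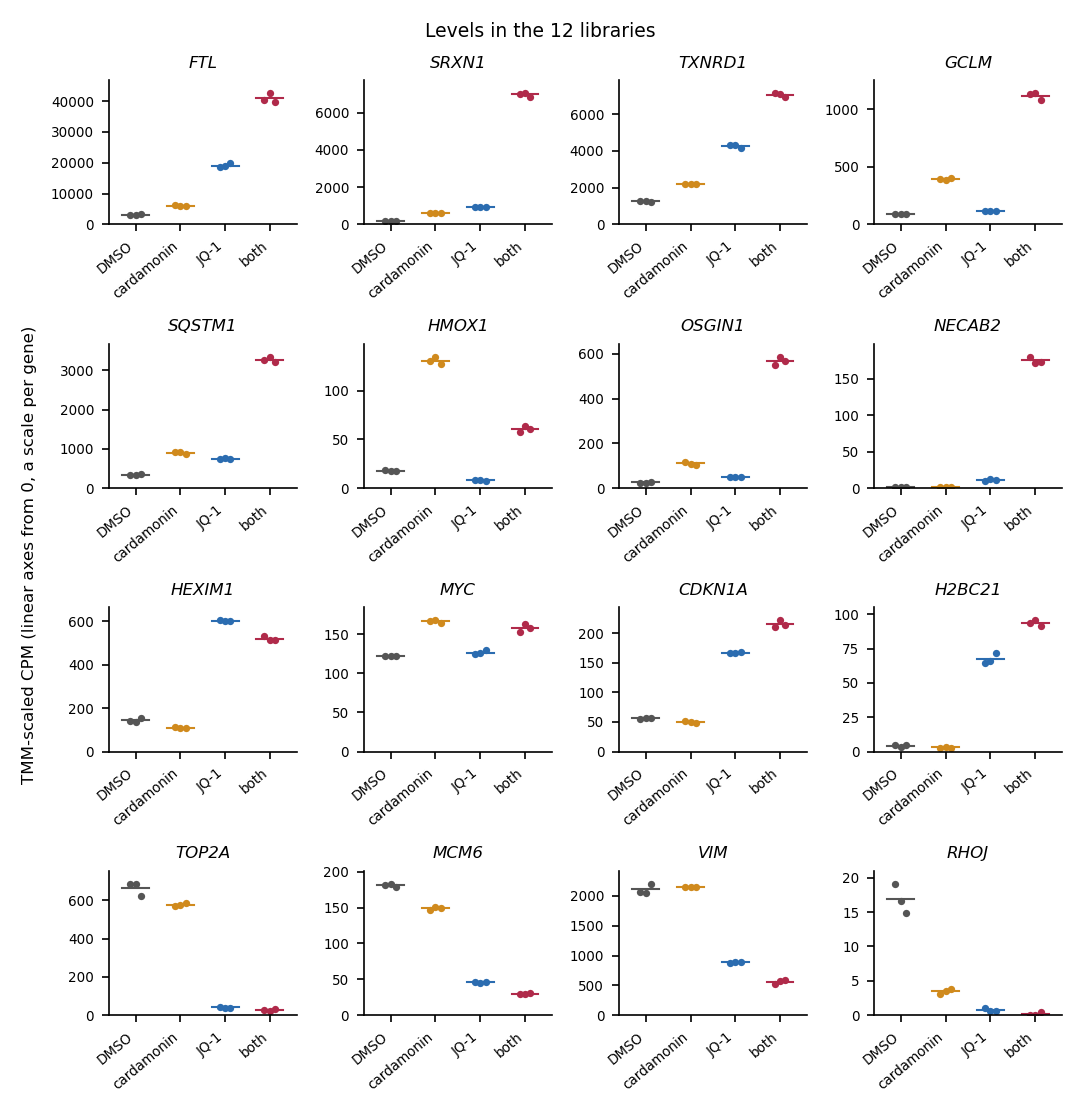
TMM-scaled CPM in all 12 libraries for 16 genes, with 1 point per library, a bar at the group mean and linear axes from 0 that differ between genes. SRXN1, GCLM, SQSTM1, OSGIN1 and NECAB2 are high with both drugs together and far lower with either alone, HMOX1 is highest with cardamonin, HEXIM1 is highest with JQ-1, and TOP2A and MCM6 are low with JQ-1 and with the combination.

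Genes of the BET and P-TEFb machinery moved moderately: 15 of 22 were higher, 7 lower, and the median was 0.41. HEXIM1, the inhibitor that holds P-TEFb in its inactive complex and a standard readout of BET inhibition, went from 139, 137 and 153 to 534, 514 and 512 CPM (3.63-fold, adjusted p = 1.69e-20). BRD2, a BET protein gene, went from 427, 424 and 419 to 1065, 1066 and 1052 CPM (2.51-fold, adjusted p = 1.05e-19). Both were separated from vehicle in every library. SUPT5H, an elongation factor gene, rose by 1.21 on the log2 scale, and NELFCD, of the pausing complex, fell by 1.12. MYC, the proto-oncogene that BET inhibitors lower in many blood cancers, was not lower here. It was counted at 122, 122 and 122 CPM with DMSO and at 152, 162 and 157 CPM with the combination (log2 0.37 ± 0.04, adjusted p = 5.85e-09). All 3 treated libraries were above all vehicle libraries. Of 38 MYC network and ribosome biogenesis genes 16 were higher and 16 lower, with a median of -0.02. Both counts were near the shares over all genes tested (42.6% and 42.8%). Among 32 promoters of the list, 11 held the E-box CACGTG bound by MYC (34.4%). It was found in 7.43% of all promoters and in 10.1% of those of genes tested. MXD4, a MYC antagonist gene, rose (log2 2.19) and TCOF1, a ribosomal DNA transcription factor gene, fell (log2 -1.82).

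Histone genes of the replication-dependent clusters rose steeply. Of 27 tested among 47 listed, 22 were higher and 5 lower, with a median log2 fold change of 2.14. The gains lay in the cluster genes: all 4 H2A, all 8 H2B, both H3 and both H4 genes tested were higher, while 4 of 7 variant genes fell. Tested were 4 of 7 listed H2A, 8 of 12 H2B, 2 of 5 H3 and 2 of 8 H4 genes. A gene low with DMSO could pass the filter through groups where it was high. That every tested gene of these classes rose may thus follow partly from the filter. Replication-dependent histone transcripts usually end without a poly(A) tail, and the library kit selects poly(A) RNA, so these counts cover the tailed fraction. H2BC21 and its promoter are shown because this gene rose most among the H2B genes and holds both elements typical of the family. The 250 bases before its start (RefSeq, GRCh38.p14, chr1:149886683-149886932, minus strand) have CCAAT boxes and TATA boxes on either strand in capitals.
H2BC21: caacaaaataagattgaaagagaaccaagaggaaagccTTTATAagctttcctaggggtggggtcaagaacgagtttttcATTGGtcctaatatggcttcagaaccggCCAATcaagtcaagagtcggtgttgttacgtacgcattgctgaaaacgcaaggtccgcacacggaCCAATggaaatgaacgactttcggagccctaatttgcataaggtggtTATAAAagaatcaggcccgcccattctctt
CCAAT was found in 22 of 26 histone promoters (84.6%; 35.7% of all promoters, 36.6% of those of genes tested) and TATAAA in 17 of 26 (65.4%; 12% of all, 5.51% of genes tested). H2BC21 was counted at 4.88, 3.56 and 4.89 CPM with DMSO and at 93.5, 95.6 and 91.5 CPM with the combination (20.9-fold, adjusted p = 9.53e-22). H1-2, a linker histone gene, went from 23.7, 23.5 and 35.2 to 548, 538 and 536 CPM (19.6-fold, adjusted p = 1.28e-11), the third DMSO library being the highest of its group. H4C8 went from 0.395, 0.691 and 0.831 to 21.4, 21.2 and 21.6 CPM (33.2-fold, adjusted p = 1.00e-18). Histone genes are near-identical copies within each class, and counts can be split among them. Among the variants that are not tied to replication, H2AZ2 fell by 0.71 on the log2 scale.

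The opposite held for the genes that make DNA and divide the cell. All 40 tested genes of the G1/S transition and DNA replication fell, 38 of them at least 2-fold, with a median of -2.19. All 44 genes of G2/M and mitosis fell, 41 of them at least 4-fold, with a median of -3.61. The 2 groups are driven through different promoter elements, E2F sites for the early genes and a cell cycle homology region with CCAAT boxes for the late ones, and an example of each is printed. MCM6, a helicase subunit, is shown with its E2F sites in capitals (RefSeq, GRCh38.p14, chr2:135876444-135876693, minus strand). CCNB2, a B-type cyclin gene (chr15:59104896-59105145, plus strand), and CDC20, the activator of the anaphase-promoting complex (chr1:43358731-43358980, plus strand), are shown with TTTGAA and CCAAT in capitals, on either strand.
MCM6: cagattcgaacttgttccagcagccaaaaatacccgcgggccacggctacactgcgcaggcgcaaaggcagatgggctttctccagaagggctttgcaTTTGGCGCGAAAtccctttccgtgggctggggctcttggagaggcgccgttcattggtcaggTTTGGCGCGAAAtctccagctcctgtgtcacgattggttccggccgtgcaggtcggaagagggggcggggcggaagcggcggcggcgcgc
CCNB2: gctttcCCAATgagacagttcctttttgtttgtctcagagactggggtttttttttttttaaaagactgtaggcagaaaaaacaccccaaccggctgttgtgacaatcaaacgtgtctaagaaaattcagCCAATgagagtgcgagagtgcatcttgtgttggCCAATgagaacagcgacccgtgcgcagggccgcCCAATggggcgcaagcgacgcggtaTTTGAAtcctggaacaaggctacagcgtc
CDC20: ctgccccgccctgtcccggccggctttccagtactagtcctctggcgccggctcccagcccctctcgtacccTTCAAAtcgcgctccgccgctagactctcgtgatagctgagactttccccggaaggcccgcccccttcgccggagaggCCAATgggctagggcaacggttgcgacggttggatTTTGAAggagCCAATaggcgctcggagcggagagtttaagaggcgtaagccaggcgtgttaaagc
In MCM6 each of the 2 capital runs holds a match on the printed strand overlapped by a different match on the opposite strand. TTTNGCGC was found in 12 of 34 G1/S promoters (35.3%), in 1.83% of all promoters and in 3.05% of those of genes tested. TTTGAA was found in 25 of 36 G2/M promoters (69.4%; 15.4% of all, 9.68% of genes tested) and CCAAT in 25 of the 36 (69.4%; 35.7% of all, 36.6% of genes tested). A match is a string of letters in this window and shows no binding.

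The values of these genes were low in every treated library. MCM6 went from 181, 183 and 179 to 29.1, 29.8 and 30.7 CPM (6.06-fold lower, adjusted p = 3.41e-22). RRM2, the regulated subunit of ribonucleotide reductase, fell 18-fold, from 174, 178 and 174 to 8.74, 8.66 and 11.9 CPM (adjusted p = 5.38e-22), and TYMS, thymidylate synthase, fell 12-fold, from 324, 325 and 340 to 26.9, 25.7 and 29.9 CPM (adjusted p = 2.67e-23). No vehicle and treated library overlapped for these genes. Among the mitotic genes TOP2A, the topoisomerase of chromosome condensation, went from 685, 686 and 621 to 25.9, 21.8 and 31.1 CPM (25.3-fold lower, adjusted p = 6.47e-16). MKI67, the proliferation marker Ki-67, went from 1064, 1090 and 787 to 55.1, 52.7 and 73.4 CPM (16.2-fold lower, adjusted p = 7.84e-09). The third DMSO library was the lowest of its group for both genes. CCNB2 fell 14.6-fold, CCNB1 8.65-fold and CDC20 8.51-fold.

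The brakes of the cycle moved unevenly. CDKN1A, the inhibitor p21, rose 3.85-fold, from 54.2, 57.0 and 56.5 to 210, 221 and 214 CPM (adjusted p = 7.47e-21). Among 12 p53 target genes, 9 rose and 2 fell, with TP53INP1, a stress-induced nuclear protein gene, higher by 1.5 on the log2 scale. The D cyclins split: CCND1 fell 1.39-fold while CCND3 rose (log2 1.28). RBL1, the RB relative p107, fell (log2 -2.71). Across the 27 genes of CDK inhibitors, G1 cyclins, the RB family and p53 targets the count was 13 higher and 11 lower. Repair by homologous recombination followed the replication genes, with 27 of 31 lower, 2 higher and a median of -1.56. FANCD2, a gene of the Fanconi anemia repair pathway, stood at a log2 fold change of -3.47 and BRCA1, a recombination repair gene, at -2.93. The 2 genes called higher were ATR and ATRIP, the checkpoint kinase and its partner. ATR rose by 0.33 and lost its call under total count scaling (adjusted p = 0.0751). ATRIP was 0.17 higher, a call that was lost in 9 of 14 alternatives.

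The title's question of invasion bears on mesenchymal, adhesion and protease genes. Of 37 mesenchymal genes tested, 29 were lower and 5 higher, with a median of -1.17. VIM, the intermediate filament gene vimentin, went from 2073, 2056 and 2199 to 528, 567 and 584 CPM (3.77-fold lower, adjusted p = 6.48e-21). CALD1, caldesmon of the actin cytoskeleton, fell by 1.86, COL4A2, a basement membrane collagen gene, by 2.26 and NT5E, the surface nucleotidase CD73, by 2.18 on the log2 scale. The transcription factors of the program did not all follow: of 5 tested, 3 fell, 2 of them at least 4-fold, and 1 rose. SNAI2, the gene of Slug, fell by 0.20, whereas SNAI1, the gene of Snail, was 2.88-fold higher at a low level (0.838, 0.850 and 1.17 against 3.01, 2.50 and 2.81 CPM, adjusted p = 5.13e-07). CCN1 and CCN2, matrix-associated YAP target genes, were 1.69-fold and 1.75-fold higher.

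Epithelial genes did not move in the opposite direction. Of 28 tested, 21 fell and 6 rose, with a median of -0.99. CDH1, E-cadherin, was below the filter at 0.641, 0.585 and 0.0489 CPM with DMSO and 0.177, 0.174 and 0 CPM with the combination, too few counts for a test. All 6 keratin genes fell, KRT80 by 3.15 and KRT7 by 2.75 on the log2 scale, and the desmosomal cadherin gene DSC2 by 4.01, while TJP1, a tight junction scaffold gene, rose by 0.55. Of 39 adhesion and motility genes 28 fell and 9 rose, with a median of -0.55. Of 12 integrin genes 10 fell, ITGB5 by 2.37, and ITGB3, the beta-3 chain, rose 4.61-fold, from 13.5, 13.2 and 11.5 to 58.1, 60.0 and 58.2 CPM (adjusted p = 1.83e-18). CAV1, caveolin-1 of membrane invaginations, fell 5.03-fold, from 978, 1026 and 954 to 181, 195 and 211 CPM (adjusted p = 7.81e-21). AXL, a receptor kinase gene tied to mesenchymal states, fell 2.30-fold.

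Matrix proteolysis genes lay near the shares over all genes tested (42.6% and 42.8%), with 11 of 26 higher and 12 lower. Of the 26, 6 were protease inhibitors (3 higher, 3 lower). The metalloproteinases were 3 of 11 higher and 5 lower, all 3 plasminogen activation genes fell, and the cathepsins and heparanase were 5 of 6 higher. PLAU, the urokinase gene that starts plasmin formation, went from 338, 336 and 346 to 33.3, 35.5 and 39.4 CPM (9.43-fold lower, adjusted p = 7.37e-23). MMP14, the membrane-bound collagenase that activates MMP2, went from 390, 387 and 407 to 116, 119 and 120 CPM (3.33-fold lower, adjusted p = 1.56e-20). The groups were well apart for both. ADAM8, a sheddase gene, fell by 2.75 and the plasminogen activator gene PLAT by 1.72 on the log2 scale. MMP1, interstitial collagenase, did not pass: 4.59, 3.67 and 3.32 CPM against 4.84, 4.19 and 3.92 CPM overlapped (log2 0.16 ± 0.17, adjusted p = 0.370), and its sign turned under total count scaling (-0.05). MMP9, the gelatinase gene, was below the filter at 0.0978 to 0.266 CPM with DMSO and 0 to 0.177 CPM with the combination. SERPINE2, a protease inhibitor gene, and BSG, the metalloproteinase inducer, rose (log2 1.52 and 0.94).

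Signalling genes moved apart by pathway. The 4 ID genes, direct targets of BMP signalling, all rose: ID1 went from 20.4, 19.0 and 29.4 to 285, 288 and 289 CPM (12.5-fold, adjusted p = 3.01e-12), with the third DMSO library highest of its group, and ID4 rose from a level near 0. SMAD6, an inhibitory SMAD gene of the same pathway, rose 5.78-fold. ENG, the co-receptor endoglin, fell 21.1-fold, from 58.5, 55.1 and 54.0 to 2.78, 2.85 and 2.28 CPM (adjusted p = 1.87e-21), and TGFB2, a ligand gene, by 2.51 on the log2 scale. Across these 26 TGF-beta, BMP and ID genes 16 were higher and 9 lower. Among AP-1, ERK feedback and EGF ligand genes 22 of 32 fell and 9 rose. The falls were 9 of 11 ERK feedback genes, all 6 ETS and early genes and 4 of 6 genes of the EGF receptor and its ligands, whereas the AP-1 subunits were 5 of 9 higher and 3 lower, with a median of 0.93. FOSL1, the AP-1 subunit FRA-1, went from 306, 332 and 332 to 51.7, 59.2 and 55.4 CPM (5.83-fold lower, adjusted p = 5.63e-21), DUSP6, an ERK phosphatase gene, fell by 1.56 and ETV4, an ETS factor gene, by 3.95. JUND, another AP-1 subunit gene, rose, from 31.8, 31.8 and 39.4 to 166, 165 and 170 CPM (4.86-fold, adjusted p = 4.95e-16).

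Inflammatory and interferon genes were mostly lower. Of 27 NF-kB and cytokine genes 17 fell and 6 rose, with a median of -0.96. LIF, an interleukin-6 family cytokine gene, went from 41.6, 40.7 and 35.9 to 2.36, 2.56 and 3.22 CPM (14.5-fold lower, adjusted p = 6.59e-19), and ICAM1, an adhesion receptor gene for leukocytes, fell 6.08-fold. Of 43 interferon response and antigen presentation genes 27 fell and 12 rose, with a median of -1.08. Among the 24 interferon-stimulated genes, 18 fell and 3 rose: IFIT3 and IFITM1 fell by 2.57 and 2.83 on the log2 scale. IRF7, the interferon regulatory factor gene, rose 6.48-fold against that direction, from 7.55, 6.11 and 8.26 to 45.8, 49.6 and 47.2 CPM (adjusted p = 2.01e-14). PSMB8, an immunoproteasome subunit gene, fell by 2.60, HLA-E, a non-classical class I gene, rose by 1.35, and CD274, the checkpoint ligand PD-L1, fell 2.12-fold. In the Wnt list 13 of 21 genes fell and 5 rose, LEF1, a Wnt transcription factor gene, by 18.3-fold.

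Stress genes did not rise as 1 block. In the ATF4 and unfolded protein list 16 of 34 were higher and 13 lower. ASNS, asparagine synthetase, went from 48.5, 53.2 and 56.5 to 289, 296 and 270 CPM (5.41-fold higher, adjusted p = 3.70e-20), while TRIB3, a pseudokinase gene of the same response, fell 5.67-fold, from 25.6, 24.3 and 26.9 to 4.96, 4.13 and 4.45 CPM (adjusted p = 4.50e-16). ATF4 itself fell by 0.80 on the log2 scale. Heat shock and chaperone genes were 12 higher and 8 lower of 24, with HSPA8, the constitutive HSP70, 1.81-fold lower and HSPA1B, the inducible form, higher by 1.23 on the log2 scale.

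Autophagy and lysosome genes rose as a list: 32 of 36 were higher, 3 lower, and the median was 0.89. All 14 lysosomal genes and all 6 proton pump genes tested rose. NEU1, lysosomal sialidase, went from 82.5, 83.2 and 94.7 to 587, 588 and 567 CPM (6.69-fold, adjusted p = 7.42e-22). MCOLN1, a lysosomal calcium channel gene, went from 18.1, 17.1 and 17.4 to 117, 127 and 112 CPM (6.78-fold, adjusted p = 2.16e-20), and MAP1LC3B, the autophagosome marker LC3B, rose 3.5-fold. Of the 3 transcription factor genes of this program, TFEB and MITF fell by 1.16 and 0.86, and TFE3 rose by 0.45. The E-box CACGTG was found in 6 of 26 promoters of the list (23.1%; 7.43% of all promoters, 10.1% of those of genes tested). Among 28 apoptosis regulators 20 fell and 6 rose, on both sides of the balance: the protective genes BCL2L1, from 485, 494 and 502 to 209, 232 and 233 CPM (2.20-fold lower, adjusted p = 6.63e-17), and BCL2 (4.49-fold lower), and the promoting gene BID (log2 -2.03). CASP9, the initiator caspase, rose 2.26-fold.

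Glycolysis was the metabolic list that rose most evenly. Of 39 hypoxia and glycolysis genes 33 were higher and 6 lower, with a median of 0.63, and of the 21 glycolysis genes 20 rose. LDHA, lactate dehydrogenase, rose 2.21-fold and GAPDH 2.37-fold, from 3268, 3263 and 3469 to 7623, 8256 and 7773 CPM (adjusted p = 4.19e-18). P4HA1, a collagen prolyl hydroxylase gene induced by hypoxia, rose 4.68-fold, and ADM, adrenomedullin, 9.49-fold. VEGFA, the angiogenic factor under the same control, fell 3.39-fold, from 119, 117 and 115 to 32.6, 32.3 and 38.3 CPM (adjusted p = 4.51e-18), and CA12, a carbonic anhydrase gene, by 1.97 on the log2 scale. In cholesterol and fatty acid synthesis 15 of 34 rose and 13 fell, with INSIG1, the anchor of the SREBP complex, higher by 3.54-fold. Cytosolic ribosomal proteins changed little, with 10 of 32 higher, 16 lower and no member past 2-fold, but the count was 14 and 14 without the third DMSO library and 0 and 21 under total count scaling. Nuclear genes of oxidative phosphorylation were 16 of 31 higher and 8 lower, which became 9 and 15 under total count scaling.

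**Figure D4:**
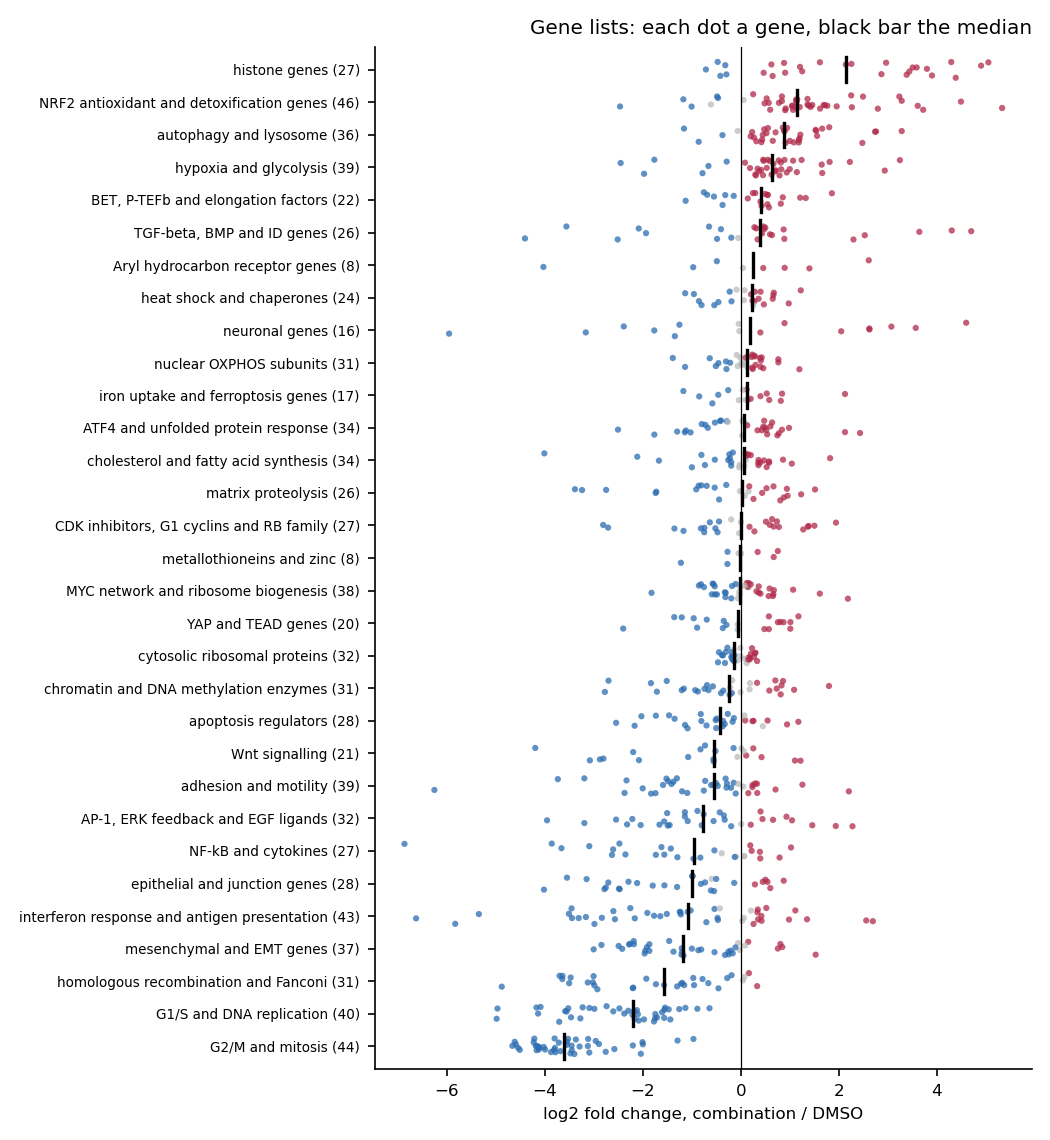
Log2 fold change of the combination over DMSO (horizontal axis) for the tested members of 31 gene lists, ordered by median (black bar), with the number tested in brackets; red points passed as higher, blue as lower and grey points did not pass. G2/M genes (median -3.61) and G1/S genes (-2.19) lie wholly on the left, and histone (2.14), NRF2 (1.14) and lysosome (0.89) genes lead on the right.

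The combination was then set against each drug alone, in the same fit. These comparisons share the combination libraries with the comparison above, so they are not independent of it. Against JQ-1 alone 6567 genes passed (51.9%), 3292 higher (26.0%) and 3275 lower (25.9%), with 163 higher (1.29%) and 308 lower (2.44%) by at least 2-fold. Against cardamonin alone 10800 genes passed (85.4%), 42.4% higher and 43% lower, with 1970 higher (15.6%) and 2518 lower (19.9%) by at least 2-fold. Cardamonin alone against DMSO changed 7250 genes (57.3%; 27.3% higher, 30.1% lower), 117 of them higher (0.925%) and 436 lower (3.45%) by at least 2-fold. JQ-1 alone changed 10580 (83.7%; 41.5% higher, 42.2% lower), 1485 of them higher (11.7%) and 2303 lower (18.2%) by at least 2-fold. Genes at 10 CPM or more that passed against DMSO and against both drugs in the same direction numbered 1494 higher (11.8% of genes tested) and 1330 lower (10.5%).

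As a list, the NRF2 genes stood higher with both drugs than with either, though not every member did. Of 46 tested, 37 were above JQ-1 alone and 3 below (median difference 0.81 on the log2 scale), and 29 were above cardamonin alone and 13 below (0.38). Their median against DMSO was 0.78 with cardamonin, 0.40 with JQ-1 and 1.14 with both. Among the members below cardamonin, AKR1B10 averaged 0.420 CPM with DMSO, 11.4 with cardamonin, 0.0734 with JQ-1 and 0.274 with both. It lay 5.35 below cardamonin alone on the log2 scale (adjusted p = 1.73e-14). Glycolysis and hypoxia genes showed a like pattern, with 32 of 39 above JQ-1 alone and 28 above cardamonin alone, and medians of 0.18, 0.17 and 0.63. The medians of the cell cycle lists lay near JQ-1 alone. Of 44 G2/M genes 5 were above and 9 below it (median difference -0.11). Of 40 G1/S genes 5 were above and 16 below (-0.13). The histone median also lay near JQ-1 (difference -0.03), but with 9 above and 9 below of 27 these genes differed from it in both directions. Over all genes tested 26.0% were above JQ-1 alone and 25.9% below. Mesenchymal genes were below JQ-1 alone in 18 of 37 and above it in 10, and VIM stood at 886 CPM with JQ-1, 2149 with cardamonin and 560 with both (difference from JQ-1 alone -0.66 ± 0.04 on the log2 scale, adjusted p = 7.57e-12).

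Some genes stood apart from both drugs by a wide margin. SRXN1 averaged 173 CPM with DMSO, 603 with cardamonin, 944 with JQ-1 and 6989 with both, which is 2.89 ± 0.04 above JQ-1 and 3.54 above cardamonin on the log2 scale (adjusted p = 3.56e-23 and 1.96e-24). OSGIN1 averaged 25.2, 110, 49.4 and 569 CPM in the same order, and SQSTM1 335, 895, 746 and 3268 CPM. NECAB2 averaged 1.42, 1.44, 11 and 175 CPM. Each of these genes was thus several times higher with the pair than with either drug. TNFSF9, the 4-1BB ligand of T cell co-stimulation, and MAP2, a neuronal microtubule protein gene, complete the 6 genes highest above both drugs, at 9.19-fold and 11.9-fold over DMSO. On the other side MARCKS, an actin-binding substrate of protein kinase C, averaged 121 CPM with DMSO, 73.2 with cardamonin, 38.9 with JQ-1 and 7.66 with both. It was 2.34 ± 0.08 below JQ-1 alone on the log2 scale (adjusted p = 5.45e-16). RHOJ, SORBS2 of stress fibres, THSD1 of focal adhesions, FBLN7 of the matrix and the kinase gene NEK3 were also below both, with log2 fold changes over DMSO from -2.69 to -6.25. RHOJ had only 11 counts over the combination libraries, and its difference from JQ-1 alone was lost without some single libraries, as given above.

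In other genes the drugs pulled in opposite directions and the pair lay between them. HMOX1 averaged 17.8 CPM with DMSO, 131 with cardamonin, 8.26 with JQ-1 and 60.7 with both, below cardamonin by 1.11 on the log2 scale (adjusted p = 6.68e-16) and above JQ-1 by 2.88 (adjusted p = 3.87e-19). SLC7A11, the cystine importer gene, averaged 94.1, 582, 37.3 and 168 CPM in that order. Both genes thus rose with cardamonin, fell with JQ-1 and were intermediate with the pair. CYP1B1 and CYP1A1, aryl hydrocarbon receptor targets that encode xenobiotic oxidases, did the reverse. CYP1B1 averaged 29 CPM with DMSO, 12 with cardamonin, 172 with JQ-1 and 14.8 with both, which is 3.53 ± 0.06 below JQ-1 alone on the log2 scale (adjusted p = 1.28e-20). CYP1A1 averaged 5.64, 2.37, 22 and 4.02 CPM (2.45 below JQ-1, adjusted p = 4.94e-14). With the pair both lay below DMSO, so the rise seen with JQ-1 was not seen when cardamonin was present. TIPARP, a further target, kept part of its rise at 46.1, 49.5, 210 and 122 CPM. ID3 at 191 CPM with JQ-1 and 138 with both, ID1 at 474 and 287, and HEXIM1 at 601 and 520 were higher with JQ-1 alone. FOSL1 was lower with JQ-1 alone, at 30.9 against 55.5 CPM. EFR3B did not differ detectably from JQ-1 alone (93.8 and 94.5 CPM, log2 difference 0.01 ± 0.05, adjusted p = 0.875), with a sign that turned under total count scaling (-0.08).

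**Figure D5:**
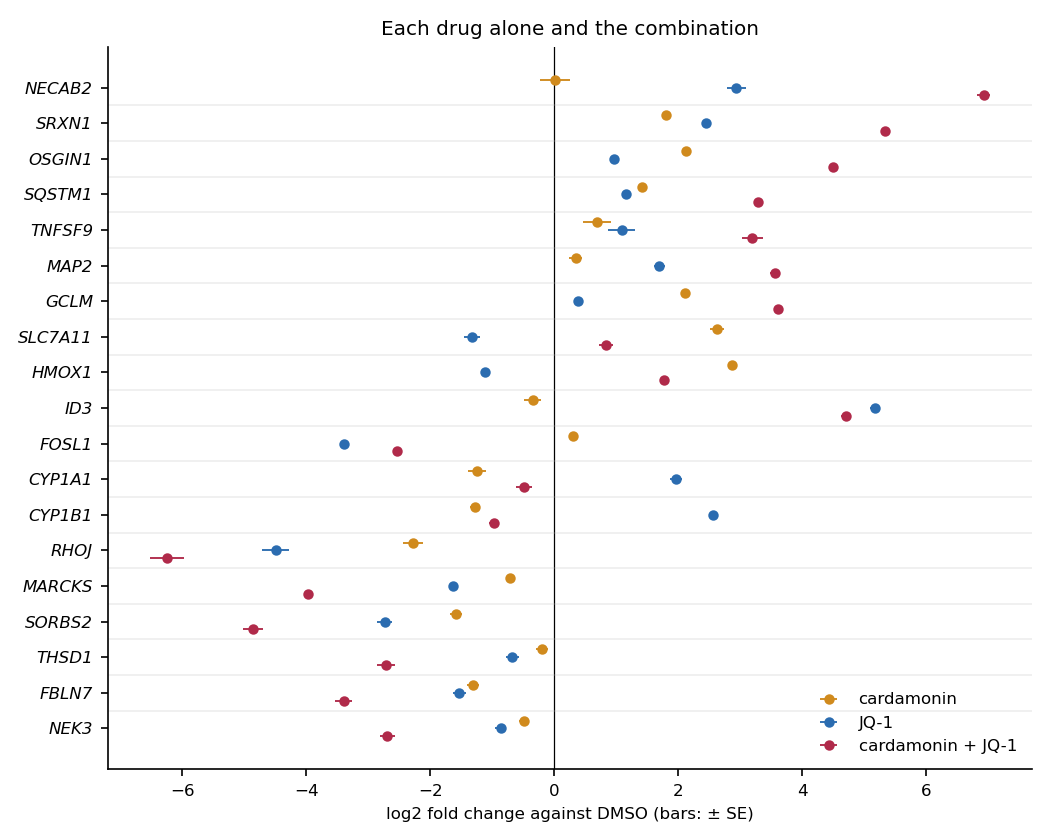
Log2 fold change against DMSO with its standard error for 19 genes under cardamonin (orange), JQ-1 (blue) and both (red). The 6 genes at the top lie further right with both drugs than with either, HMOX1 and SLC7A11 lie between the drugs, CYP1A1 and CYP1B1 rise with JQ-1 only, and the 6 genes at the bottom lie furthest left with both.

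A few genes went from almost no counts to clear detection, or the reverse. TCF15, a mesodermal transcription factor gene, had 0 counts with DMSO, all 3 libraries summed, and 163 with the combination, at least 63.2-fold higher against a floor of 3 counts over the group. It lies 36216 bases beyond the end of SRXN1 on the same strand. KLRD1, a natural killer cell receptor gene, had 1 and 117 counts, a ratio of 136 (95% exact interval 23.9 to 5420, counting error only), and begins 2927 bases beyond the end of GABARAPL1, an LC3 relative that rose 2.94-fold. Whether reads from the gene upstream were counted there was not tested for either. NPC1L1, a cholesterol importer gene, had 3 and 86 counts, and STAG3, a meiotic cohesin gene, 2 and 70. In the other direction KCNE3, a potassium channel subunit gene, went from 200 to 2 counts, CASP1, the inflammasome caspase, from 187 to 3, EDN2, the gene of endothelin-2, from 155 to 2 and PDCD1LG2, the checkpoint ligand PD-L2, from 154 to 2. In all, 6 genes had a sum of at most 3 counts with DMSO and at least 1 CPM in every combination library, and 19 showed the reverse.

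By difference in mean CPM the largest gains after FTL and FTH1 were SRXN1, TXNRD1, GAPDH, SQSTM1, PKM of glycolysis and FLNA, an actin cross-linker gene, at 1888, 1875 and 1562 against 4221, 4267 and 4252 CPM (2.39-fold, adjusted p = 1.95e-14). The largest losses were cytoskeletal. TUBB, a beta-tubulin gene, went from 3942, 3988 and 3910 to 1144, 1186 and 1194 CPM (3.36-fold lower, adjusted p = 1.38e-21), and TUBA1B, an alpha-tubulin gene, from 1783, 1753 and 1850 to 389, 403 and 410 CPM (4.48-fold lower, adjusted p = 1.22e-21). ACTB and ACTG1, the cytoplasmic actins, fell 1.35-fold and 2.29-fold. VIM, HSPA8 and MKI67 were also among the 8 largest losses. TUBB3, the neuronal beta-tubulin gene, rose against that trend, from 55.4, 56.9 and 64.0 to 370, 368 and 349 CPM (6.16-fold, adjusted p = 1.18e-19). TGM2, tissue transglutaminase, which crosslinks matrix proteins, went from 1037, 1032 and 932 to 177, 171 and 175 CPM (5.74-fold lower, adjusted p = 5.03e-22). Actin, tubulin and GAPDH genes have processed copies in the genome, and their counts are uncertain to that extent.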

How the data were processed

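RNA from MDA-MB-231 cells was extracted with RNAiso Plus and made into libraries with a stranded poly(A) kit (TruSeq Stranded mRNA) at an RNA integrity number of at least 7, per the labels. The authors deposited a table of raw read counts per gene symbol for each library. Trimmomatic, HISAT2 and HTSeq are listed, with build hg38, in the submitters' processing notes. No source used here gives their versions, the annotation, the strand setting or how multi-mapping reads were treated. Without a stated strand setting, reads of overlapping and antisense genes cannot be told apart.

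All 12 libraries entered 1 fit with 4 groups (edgeR 4.0.16 under R 4.3.3; filterByExpr with a minimum count of 10 and total of 15, TMM scaling, robust quasi-likelihood test, 8 residual degrees of freedom, common biological coefficient of variation 0.0408). Genes were called at an adjusted p of 0.05, and standard errors were computed as the log2 fold change over the square root of F. CPM are counts over library total times TMM factor. The script was tested on simulated data. Alternatives were DESeq2 1.42.0, other scalings and filters, a 2-group fit, a replicate block and leaving out libraries. Positions of 16233 of 16384 symbols (99.1%) come from GENCODE on GRCh38, and 722 of 898 list genes had a RefSeq promoter. Exact intervals on ratios of counts cover counting error only.

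The comparison, the lists and the tests were chosen with earlier results of these data known. Named genes follow 1 rule: the 12 largest rises and falls with at least 10 CPM, no overlap and the call kept without the first combination library; the 8 largest gains and losses of CPM; the 4 highest genes near 0 in the other group; in each list up to 4 genes of smallest adjusted p and 2 against its majority; 16 genes fixed by name; and the 6 furthest above or below both drugs. GCLC, TXN, PRDX1, NQO1, SLC7A11, AKR1B10, CBR3, GPX4, ID1, ID4, SMAD6, TOP2A, CCNB1, CCNB2, CDC20, BRCA1, SNAI1, CYP1A1, LDHA, GABARAPL1, ATF4, IRF7, BCL2 and TFE3 were named after their values were seen. Some genes under the rule are not reported here. No sample was left unassigned. Replicate numbers did not pair the libraries: same-numbered DMSO and combination libraries had deviations correlated at 0.002, 0.022 and -0.003.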

Additional observations from a re-analysis of the deposited data

How the results depend on the processing

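The counts of higher, lower and at least 2-fold changed genes stayed within 1.5 times their values under all 14 alternatives. Leaving out 1 library at a time gave 5246 to 5480 higher, 5299 to 5434 lower and 4176 to 4227 changed at least 2-fold, and leaving out Combination replicate 1 and DMSO replicate 3 together gave 5362, 5388 and 4166. DESeq2 gave 5230, 5318 and 4152, and no filter 5582, 5638 and 4672. With replicate number as a block in the fit the counts were 5379, 5407 and 4164, and no named gene changed its call; the numbers are shared labels only. Of 239 named genes tested, giving 3339 values over the alternatives, 3323 kept direction and side of the threshold, 12 lost the call, 1 gained it and 3 turned. MMP1, not called, ranged from 0.065 to 0.30 with 1 library left out and turned to -0.047 under total count scaling and to -0.031 without both doubted libraries, and ATRIP turned to -0.040 under total count scaling. That scaling shifted fold changes by a median of -0.207, more than the fitted 0.160 of MMP1 and 0.167 of ATRIP. The cause of the MMP1 turn without both doubted libraries was not tested. RPS2, RPLP0 and TCF7L2 lost their calls under total count scaling only, and AKR1B10 was called lower without Combination replicate 3 (log2 -1.78). Total count scaling lowered every list median by about the same shift and turned those for iron uptake (0.12 to -0.09), matrix proteolysis (0.03 to -0.17), ATF4 (0.07 to -0.14), cholesterol (0.07 to -0.14), oxidative phosphorylation (0.13 to -0.07) and neuronal genes (0.19 to -0.02). The matrix proteolysis median was also -0.29 with no expression filter and -0.01 without DMSO replicate 3, and the neuronal one reached -0.03 without 1 combination library. Against JQ-1 alone it gave 2229 higher and 4554 lower, and single libraries left out gave 2906 to 3017 and 2893 to 3048; against cardamonin alone 4652 and 6167, and 5253 to 5277 and 5325 to 5355. These settings against each drug were added after the data were seen. The EFR3B difference from JQ-1 turned to -0.077 under total count scaling, -0.00109 under upper-quartile scaling and -0.00808 without the first JQ-1 library, within -0.0081 to 0.032 over the libraries left out. Depth limits values below about 0.2 CPM, where 3 counts per library are not passed.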

Other observations

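Neuronal genes were not raised together: of 27 listed, 16 were tested, 8 rose and 6 fell. Over all genes tested 42.6% were higher and 42.8% lower. MAP2 went from 9.27, 11.9 and 8.70 to 120, 119 and 114 CPM (11.9-fold; edgeR, adjusted p = 4.27e-20), while STMN3, a tubulin-binding protein gene, and L1CAM, an adhesion molecule gene, were lower by 1.76 and 1.25 on the log2 scale. The chromatin enzyme list held 17 lower and 9 higher genes of 31. All 6 genes of DNA methylation and its removal fell, and HDAC5, a class IIa histone deacetylase gene, rose by 1.80. Metallothionein and zinc genes were 3 higher and 3 lower of 8, and YAP and TEAD genes 9 and 9 of 20.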
